A study of Mus musculus with 6 samples.

Results

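The tissue kallikrein cluster is a row of closely related genes on mouse chromosome 7 that encode secreted serine proteases. The members described here were the 10 names Klk1, Klk1b3, Klk1b4, Klk1b5, Klk1b16, Klk1b21, Klk1b22, Klk1b24, Klk1b26 and Egfbp2, of 23688 gene names on the array. Every probe of the array that was not a control and carried a member's name was taken, which gave 11 of 55681 probes. Klk1b26 had 2 probes and each other member had 1 probe, and each probe was a single spot. The members were picked because of how they differed between the same 6 arrays, so their differences are given as a description, with no test.

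Total RNA from the cardiac muscle of male C57BL/6 mice was measured on 1-colour Agilent arrays. The sham group had 3 samples from mice kept in the same space and on the same feeding, and the tail-suspension group had 3 samples from mice suspended by the tail for 28 days, a model of microgravity. No allele and no agent separated the groups. The labels state an age of 10 weeks when suspension began and, for the animals sampled, 11 weeks, which cannot both hold with 28 days of suspension. Nothing states whether the RNA of an array came from 1 heart, so the spread within a group is that between these arrays and may in part be technical.

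Tissue kallikreins cut proteins at defined sites. Klk1, the true tissue kallikrein, releases kinin peptides from kininogen, and kinins act on bradykinin receptors to relax vessels. The Klk1b genes arose by duplication in rodents, are best known from the male submandibular salivary gland and other glands, and several are named for the precursors they bind or cut: Klk1b22 as an epidermal growth factor binding protein, Klk1b16 as gamma-renin and Klk1b26 as a prorenin converting enzyme.

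All 11 member probes lay on the plus strand of chr7:51272156-51484325 of mm9, a stretch of 212.2 kilobases. Egfbp2, the name of another epidermal growth factor binding protein, is not a separate gene in RefSeq (assembly GRCm38.p6), where it is a synonym of Klk1b26. Since near-identical copies can share signal on an array, the probe sequences were compared with each other before the values were read. The probe of Egfbp2 (chr7:51272277-51272336) and the first probe of Klk1b26 (chr7:51272272-51272331) overlapped by 55 bases and listed the same 2 transcripts, so they are readings of the same stretch of RNA and not of separate genes. Those probes and the probes of Klk1b5 (chr7:51476012-51476071) and Klk1b16 (chr7:51396915-51396974) held AATAAA, the letters of the polyadenylation signal. Where these letters lie in the transcripts was not examined. The 30 bases before them show how little separates these probes, with capitals at the positions that differ from the Klk1b26 probe.
Klk1b26 probe 1: tgcctgagtgtcacattgtcccatgttctt
Egfbp2: tgcctgagtgtcacattgtcccatgttctt
Klk1b5: tgcctgaAtAtcacattgtcccatgttctC
Klk1b16: tgcTtgagtgtcacattgtTccatgttTtC
Klk1b5 differed from Klk1b26 at 3 of these 30 bases and Klk1b16 at 4. Over the whole probe, the longest identical run shared with Klk1b26 was 19 bases for Klk1b5 and 15 bases for Klk1b16. In the best local alignment, the Klk1b5 probe matched the first Klk1b26 probe at 48 of 51 bases, and the Klk1b16 probe at 52 of 58. Whether the Klk1b5 and Klk1b16 probes read Klk1b26 RNA in part was not tested, so their differences below may not be their own.

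The other 7 member probes, which did not hold AATAAA, are shown in full. Runs shared between probes do not decide which members can be told apart, because no probe was compared with the transcripts of other members. Capitals mark the longest run that a probe shared with a probe of another gene of the kallikrein family.
Klk1b26 probe 2: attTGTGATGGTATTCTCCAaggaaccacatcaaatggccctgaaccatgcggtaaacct
Klk1b24: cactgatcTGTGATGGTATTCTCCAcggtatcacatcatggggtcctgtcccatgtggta
Klk1b22: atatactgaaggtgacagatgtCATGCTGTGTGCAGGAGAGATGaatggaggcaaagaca
Klk1b3: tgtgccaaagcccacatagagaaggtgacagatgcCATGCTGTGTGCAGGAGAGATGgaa
Klk1b21: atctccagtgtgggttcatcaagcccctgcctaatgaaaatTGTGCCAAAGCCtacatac
Klk1: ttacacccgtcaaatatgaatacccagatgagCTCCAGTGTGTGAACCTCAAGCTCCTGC
Klk1b4: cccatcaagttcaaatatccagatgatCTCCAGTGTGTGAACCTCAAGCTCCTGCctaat
The second Klk1b26 probe (chr7:51272156-51272215) shared 17 bases with the Klk1b24 probe (chr7:51447637-51447696). The Klk1b22 probe (chr7:51371648-51371707) and the Klk1b3 probe (chr7:51457064-51457122) shared 22 bases, and Klk1 (chr7:51484170-51484325) and Klk1b4 (chr7:51466302-51466457) shared 28. Klk1b21 (chr7:51361257-51361316) had the shortest such run of these probes, 12 bases. In the best local alignment, the Klk1b3 probe matched the Klk1b22 probe at 39 of 42 bases. Whether the Klk1b3 probe reads Klk1b22 RNA in part was not tested, so its difference below may not be its own. Among the 55670 probes of other names, only 1 shared a run of at least 20 bases with a member probe: a probe with no gene name shared 26 bases with Klk1b16 and was not well above background on any array. The map of shared runs shows that runs of 20 bases or more joined members in pairs.

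**Figure D1:**
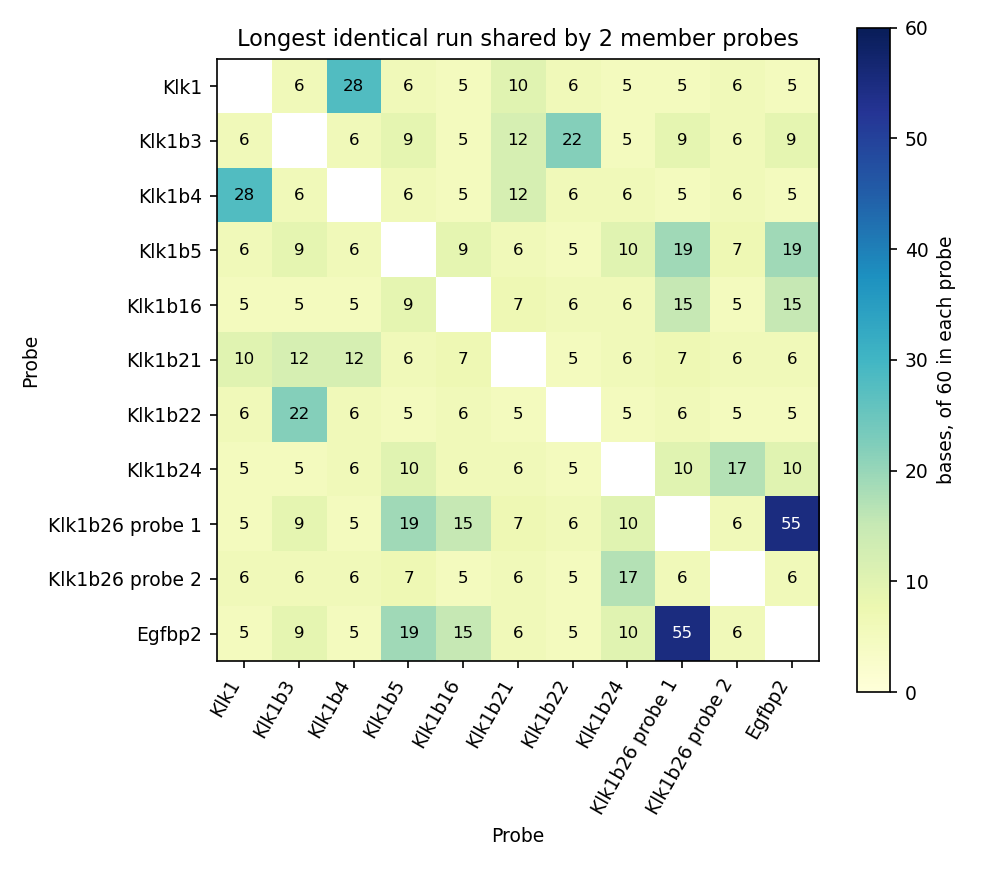
Longest run of identical bases shared by each pair of member probes, in bases, with a probe on each axis; every probe is 60 bases long and the diagonal is blank. Egfbp2 and the first Klk1b26 probe share 55 bases, Klk1 and Klk1b4 share 28, and Klk1b3 and Klk1b22 share 22.

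The authors' scanner software gave each spot a processed intensity, its brightness after background correction in scanner units, and a flag for a spot well above background. The level used below is the log2 of that intensity minus the log2 of the 75th percentile of the array, which lay between 301.6 and 376.3. A probe was tested where it was well above background on all 3 arrays of at least 1 group, which held for 28032 probes and for 8 of the 11 member probes, of 7 names. Each array had 50.9% to 53.4% of its probes well above background and no saturated spot, and the 6 arrays shared 1 slide and 1 scan. The cardiac label was checked with 10 cardiomyocyte markers, of which 9 were well above background on all 6 arrays; Myl7, the atrial myosin light chain, was so on 1 array of each group. By limma, 1 of the 9, Actc1, was past the threshold, beside 21.5% of all genes tested by their brightest probe. Actc1 differed by -0.33 (adjusted p = 0.0364 by limma) and passed under 4 of 16 alternatives, with adjusted p-values of 0.0326 to 0.522. The list's summed level lay at 4501 to 4873 in sham and 4307 to 4761 in tail-suspension.

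Klk1b26 gave bright readings by both of its probes. Its first probe had a processed intensity of 207.6, 293.4 and 132.1 on sham arrays 1 to 3 and of 3266, 2401 and 2045 on tail-suspension arrays 1 to 3. Its second probe, whose coordinates do not overlap those of the first, read 148.8, 194.7 and 95.1 in sham and 2440, 1875 and 1556 in tail-suspension. Every tail-suspension array was above every sham array by either probe, and the groups did not overlap. On the log2 level, the first probe went from a sham mean of -0.65 ± 0.53 to 2.79 ± 0.42 under tail-suspension (SD, n = 3 each), a difference of 3.44 or 10.9-fold. The second probe differed by 3.57, or 11.9-fold. Egfbp2, which reads the same RNA as the first Klk1b26 probe, had 201.3, 273.3 and 131.3 in sham and 3151, 2448 and 1941 in tail-suspension. Its difference of 3.46, or 11.0-fold, thus repeats the Klk1b26 reading.

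The probe of Klk1b5, which is close in sequence to the first Klk1b26 probe, read 96.7, 125.5 and 63.2 in sham and 1317, 990.1 and 821.6 in tail-suspension, with no overlap. Its log2 level went from -1.78 ± 0.45 to 1.49 ± 0.42 (SD, n = 3 each), a difference of 3.27 or 9.66-fold. Klk1b22, the epidermal growth factor binding protein, read 36.4, 38.5 and 23.7 in sham and 509.2, 410.2 and 355.8 in tail-suspension. The groups again did not overlap, and the difference on the log2 level was 3.50, or 11.3-fold. The Klk1b22 probe shared at most 6 bases in a row with either Klk1b26 probe, and the Klk1b26 probes shared no more with each other. Probes were compared with probes and not with transcripts, so whether the Klk1b22 probe also reads Klk1b26 RNA was not tested.

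Klk1b16, the gene of gamma-renin, was dim in sham. Its probe read 28.1, 26.4 and 11.1 in sham, where 2 of the 3 arrays were well above background, and 331.4, 261.3 and 224.6 in tail-suspension. The groups did not overlap, and the log2 levels differed by 3.52, or 11.5-fold, with the third sham array measured only as not well above background. Klk1b3 read 16.1, 14.8 and 6.56 in sham, where only the first array was well above background. In tail-suspension it read 68.8, 75.5 and 63.5. The groups did not overlap, and the log2 levels differed by 2.36, or 5.14-fold, a value that rests on 2 sham signals not well above background and was 0.58 under normexp. Klk1b16 and Klk1b3 passed the filter only through the tail-suspension group, where they were high.

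**Figure D2:**
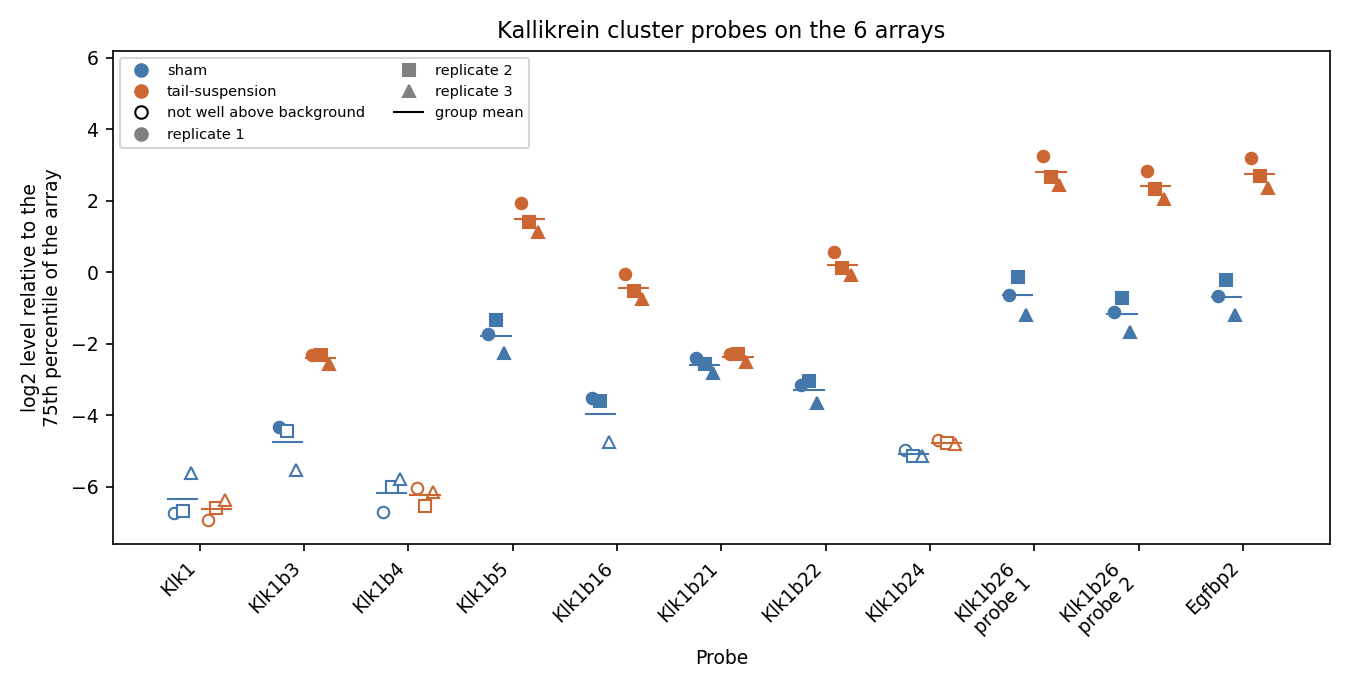
Log2 level of each member probe on each of the 6 arrays, relative to the 75th percentile of the array, with sham in blue, tail-suspension in orange, a symbol for each replicate, a line at each group mean and open symbols where the spot was not well above background. The groups are apart for Klk1b3, Klk1b5, Klk1b16, Klk1b22, Egfbp2 and both Klk1b26 probes, and Klk1b21 overlaps.

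Klk1b21, which lies between Klk1b26 and Klk1b22, did not have this pattern. It was well above background on all 6 arrays, with 61.6, 54.2 and 42.7 in sham and 69.6, 77.1 and 65.7 in tail-suspension. Its mean log2 level went from -2.59 ± 0.22 to -2.36 ± 0.13 (SD, n = 3 each), and on that scale the third tail-suspension array lay below the first sham array, so the groups overlapped. Under normexp, another background correction, the difference of Klk1b21 turned from 0.22 to -0.048.

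Klk1, Klk1b4 and Klk1b24 were dark, that is, not well above background on any array, so no level and no difference can be given for them. The Klk1b24 probe read 10.2, 9.0 and 8.46 in sham and 13.1, 13.7 and 13.3 in tail-suspension, all below the flag. Klk1, the kinin-releasing member, read between 2.80 and 6.19 over the 6 arrays, and Klk1b4 between 3.06 and 5.48. The Klk1 and Klk1b4 probes thus stayed dark in the same hearts in which the Klk1b26 probes were bright, and the arrays do not tell absence from a level below their background.

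Counted together, 7 of the 8 tested member probes, of 6 names, were higher in tail-suspension by over 2 on the log2 scale, which 0.61% of all tested probes were. The groups did not overlap in the higher direction for 7 of them, as for 22.1% of all tested probes. The Egfbp2 probe and both Klk1b26 probes are readings of the same gene, and Klk1b3 and Klk1b16 passed the filter only through tail-suspension. The members were chosen on this contrast, so nothing is read from these counts. The median difference was 3.45 over the 8 tested member probes and -0.00485 over all 28032. In bulk tissue, a change in the number of cells that make these RNAs and a change in the RNA per cell cannot be told apart.

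The 7 high probes moved together from array to array as well. In all 7, the lowest array was the third sham array, and the tail-suspension arrays kept the order of replicate 1, replicate 2 and replicate 3 from high to low. The highest sham array was replicate 2 for 5 of them and replicate 1 for Klk1b3 and Klk1b16. Between any pair of the 7 probes, Pearson's r over the 6 arrays lay between 0.976 and 1.00, a description of points that share the same RNA, the same groups and in part the same probe sequence. For Klk1b21 and the first Klk1b26 probe it was 0.71.

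The 3 sham arrays and the first tail-suspension array lay in 1 row of the slide, and the other tail-suspension arrays in another row. With the row as a block, the groups are compared within the first row, so the estimate rests on 1 tail-suspension array against the 3 sham arrays. That array, tail-suspension replicate 1, was the highest for all 7 probes. The differences of the 7 probes then lay between 2.45 for Klk1b3 and 4.0 for the second Klk1b26 probe. In the deposited table of log2 values, Klk1b22 differed by 3.02. Under normexp, whose offset compresses dim signals, the 7 differences lay between that of Klk1b3 and 3.08 for the first Klk1b26 probe, and Klk1b16 differed by 1.75.

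The rest of the kallikrein family gives the context along the chromosome. Of 17 family genes outside the members, 4 were well above background on all arrays of at least 1 group and 10 on no array. By limma with Benjamini-Hochberg adjustment, 0 of the 4 were past 0.05, against 21.5% of 14962 genes tested by their brightest probe, while 2 had an unadjusted p under 0.05; by the methods' t-test after the same adjustment the count was also 0. The median difference of the 4 was -0.000752. Klk1b8, separated from Klk1b26 by Klk1b1, Klk1b9 and Klk1b11, had log2 levels 0.71 higher in tail-suspension (standard error 0.20, adjusted p = 0.053 by limma), with 13.8, 17.6 and 12.5 in sham, where 1 array was well above background, and 19.3, 32.0 and 33.5 in tail-suspension. That difference turned to -0.05 under normexp and reached 0.92 without tail-suspension replicate 1, with an adjusted p of 0.0265 to 0.752 over the alternatives. Klk8, the gene of neuropsin, differed by -0.43 (standard error 0.12, adjusted p = 0.0538 by limma). Klk9 and Klk10 differed by -0.01 and 0.01. Klk1b27, whose probe lies between those of Klk1b26 and Klk1b21, was dark, as were Klk1b1, Klk1b9 and Klk1b11. High and dark probes thus alternated along the stretch that holds the members.

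**Figure D3:**
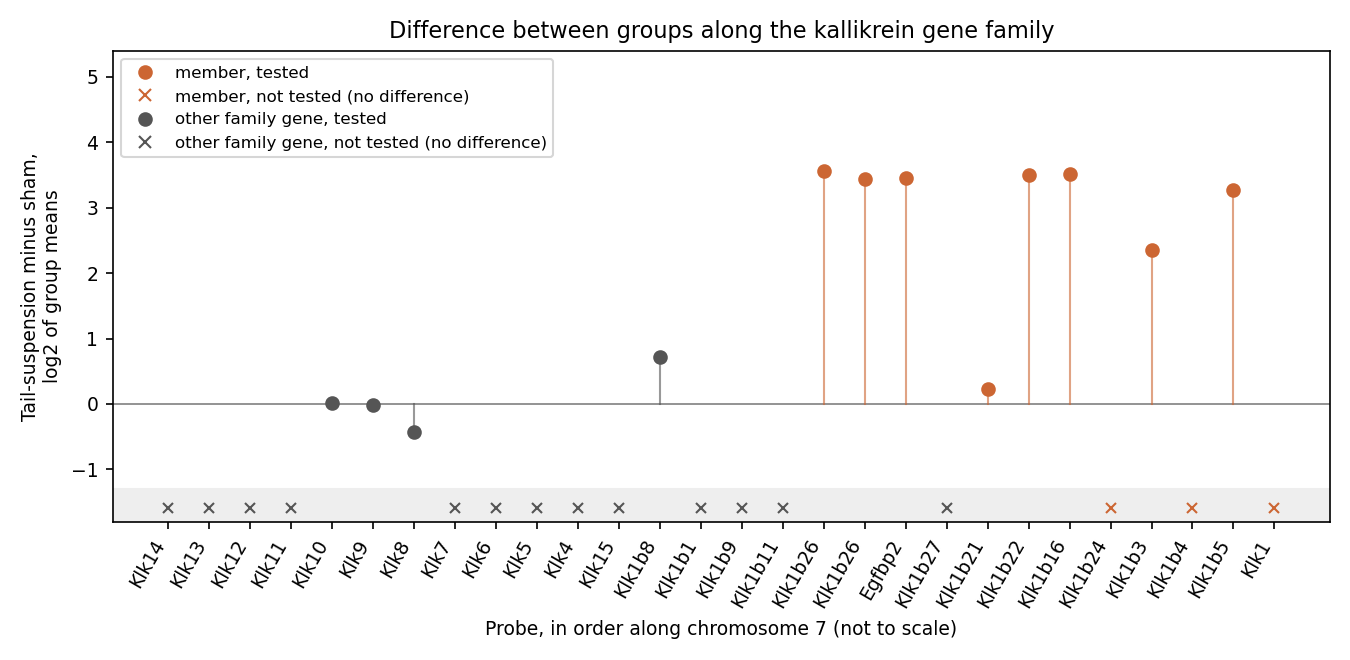
Difference of the group means of the log2 level, tail-suspension minus sham, for each probe of the kallikrein family in order along chromosome 7, with members in orange and other family genes in grey; crosses in the shaded strip mark probes that were not tested and have no difference drawn. The 7 high member probes lie between 2.36 and 3.57 and are separated by Klk1b21, at 0.22, and by Klk1b27, Klk1b24 and Klk1b4, which were dark.

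Because the high members moved together, the sequences around their annotated starts were set side by side. RefSeq promoter windows of 300 bases, from 250 before the start to 50 after it (assembly GRCm38.p6), were on hand for 9 members, all but Egfbp2. Their 36 pairs were identical at 79.7% to 97.7% of aligned bases. Gaps and unaligned ends were not counted, so Klk1b4 and Klk1 were compared over 202 bases and Klk1b22 and Klk1b5 over 297. The letters TTTAAA, which read the same on both strands, were in 8 of the 9 windows, before the start in 7 of them and after it in Klk1b21, and 13.2% of 32851 mouse promoters of that length held them. AGAACA, or TGTTCT on the other strand, was in the promoters of Klk1b24 and Klk1b3 only, and in 19% of all promoters. The 60 bases before the start are shown for Klk1b26, Klk1b5 and Klk1b22, which were high, and for Klk1b4, Klk1b24 and Klk1, which were dark, with TTTAAA in capitals; all lie on the plus strand.
Klk1b26 (chr7:44012618-44012677): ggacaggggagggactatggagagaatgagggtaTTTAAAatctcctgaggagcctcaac
Klk1b5 (chr7:44216414-44216473): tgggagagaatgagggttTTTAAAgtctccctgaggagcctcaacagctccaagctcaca
Klk1b22 (chr7:44112613-44112672): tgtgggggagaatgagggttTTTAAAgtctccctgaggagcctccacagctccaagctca
Klk1b4 (chr7:44207373-44207432): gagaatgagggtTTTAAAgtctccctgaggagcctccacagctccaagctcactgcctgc
Klk1b24 (chr7:44188176-44188235): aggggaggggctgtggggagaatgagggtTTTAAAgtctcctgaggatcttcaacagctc
Klk1 (chr7:44225300-44225359): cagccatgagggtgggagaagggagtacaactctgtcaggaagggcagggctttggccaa
The promoters of Klk1b4 and Klk1b5, a dark and a high member, were identical at 93.2% of aligned bases. The TTTAAA run was thus present in high and in dark members alike, and in Klk1 it was not within this window.

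The genes through which tissue kallikreins act were read from a list of 16 kinin pathway genes. Of these, 8 were tested and 7 were not well above background on any array, and 3 of the 8 were past an adjusted p of 0.05 by limma (2 higher, 1 lower), beside 10.5% of all genes tested that were higher and 11% that were lower. The kininogens Kng1 and Kng2, the substrates of Klk1, were dark on every array, as were the bradykinin receptors Bdkrb1 and Bdkrb2, the contact factor F12 and the carboxypeptidase N subunits Cpn1 and Cpn2. Klkb1, plasma kallikrein, was well above background on 1 tail-suspension array. The RNA of the substrates and receptors of the kinin route was thus below background on these arrays, as that of Klk1 was. The arrays do not measure the proteins, so whether these were present in the hearts was not tested.

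Among the inhibitors, Serpina3c, which RefSeq also lists as the kallikrein binding protein, had a processed intensity of 18.4, 16.7 and 16.6 in sham and 113.7, 78.3 and 100.2 in tail-suspension. It rose by 2.27 on the log2 scale, or 4.82-fold, with a standard error of 0.17 (limma, adjusted p = 0.00212), and the groups did not overlap. It passed under all 16 alternatives run, with a difference of 0.74 under normexp and at most 2.60. Serping1, the C1 inhibitor, which also blocks plasma kallikrein, had log2 levels of 4.90, 4.91 and 5.02 in sham and 5.86, 5.34 and 5.76 in tail-suspension. It rose by 0.71, or 1.63-fold, with a standard error of 0.15 (limma, adjusted p = 0.0228), and passed under 9 of 16 alternatives, with an adjusted p of 0.00391 to 0.0848. Serping1 did not pass without sham replicate 1 or 2 (adjusted p = 0.071 and 0.0815 by limma) or without tail-suspension replicate 1 or 3 (0.0599 and 0.0763). Its other probe differed by 0.81.

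Of the kinin-degrading peptidases, Xpnpep2, the membrane aminopeptidase P, read 23.6, 20.7 and 21.1 in sham and 9.27, 4.05 and 4.49 in tail-suspension, where it was not well above background on any array. It fell at least 1.51-fold (adjusted p = 0.0101 by limma) and did not pass by the methods' t-test (adjusted p = 0.0565, 0.00271 to 0.0565 over the alternatives). That bound sets the sham mean against tail-suspension values held at the dimmest signal still well above background on each array. Xpnpep2 passed the filter only through the sham group, where it was higher. Ace, the angiotensin and kinin converting enzyme, differed by -0.04 (adjusted p = 0.867 by limma). Mme, neprilysin, differed by -0.39 by its brighter probe (adjusted p = 0.073 by limma) and by -0.64 by its other probe (adjusted p = 0.015). Cpm, Ece1 and Prcp, which cut kinins or related peptides, differed by 0.51, 0.24 and -0.21 and did not pass.

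The precursors and receptors after which several Klk1b genes are named were read from a list of 7 genes, of which 6 were tested, 1 rose and 1 fell by limma, beside 10.5% of all genes tested that were higher and 11% that were lower. Agt, angiotensinogen, the substrate of renin, rose by 1.04 ± 0.20 (standard error; limma, adjusted p = 0.0189), from 86.6, 75.1 and 58.0 in sham to 173.5, 136.6 and 215.2 in tail-suspension. Ngfr, a neurotrophin receptor, fell by 1.55 ± 0.37 (standard error; limma, adjusted p = 0.0316), from 70.7, 109.2 and 77.0 to 54.4, 30.1 and 22.4. Neither pair of groups overlapped; Agt passed under 10 of 16 alternatives and Ngfr under 7 of 16, with adjusted p-values of 0.00924 to 0.126 and 0.00688 to 0.223. By limma, Agt did not pass without sham replicate 2 or tail-suspension replicate 1 or 3 (0.0663, 0.0564 and 0.0586), and Ngfr passed only without tail-suspension replicate 1 among the arrays left out. Egf, epidermal growth factor itself, differed by -0.45 (adjusted p = 0.083 by limma). Ren1 and Ren2, the renin genes, differed by -0.21 and -0.49 and did not pass, and were well above background on 2 and 1 of the tail-suspension arrays. Egfr differed by 0.39 by its brightest probe and did not pass, while its 2 other probes differed by 0.55 and 1.09 with adjusted p-values of 0.0337 and 0.0482 by limma.

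**Figure D4:**
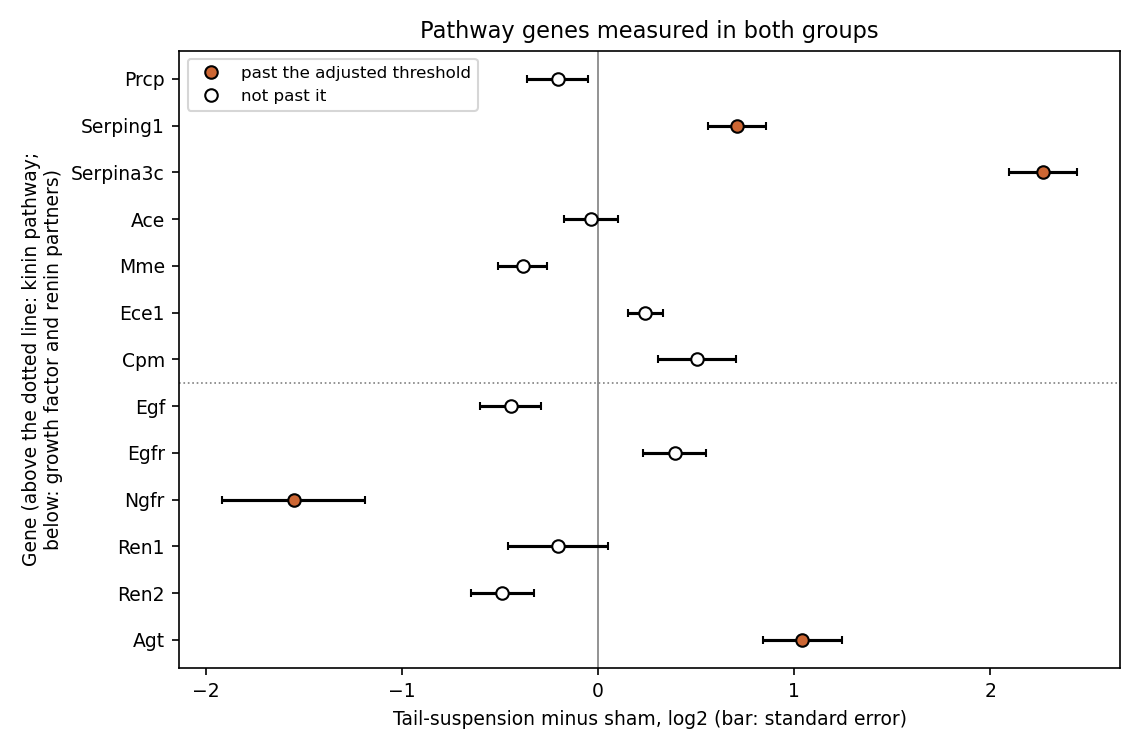
Difference of the log2 level, tail-suspension minus sham, with its standard error from limma, for the tested kinin pathway genes above the dotted line and the growth factor and renin partners below it; filled symbols are past the adjusted threshold. Serpina3c at 2.27, Agt at 1.04 and Serping1 at 0.71 are higher and Ngfr at -1.55 is lower; Xpnpep2, measured as a bound, is not drawn.

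Since Klk1b genes are best known from glands, markers of tissues and cells that express them were read beside the members. Of 14 salivary gland markers, 10 were not well above background on any array, and Smr2, Smr3a, Bpifa2, Muc19, Pip and Car6 were among these. Their summed level was 2.20 to 2.31 in sham and 3.74 to 5.09 in tail-suspension, in units of the 75th percentile of the array, and lay mostly in Amy1, an amylase gene, which rose by 1.05 (adjusted p = 0.00551 by limma; 0.0598 with slide row as a block and 0.000711 to 0.0598 over the alternatives). Dcpp1 and Aqp5 were well above background on 1 sham array and no tail-suspension array. Of 15 pancreas markers 3 were tested, of 10 kidney markers 1 and of 6 Leydig cell markers 3. Of these 7, 0 passed by limma or by the methods' t-test after adjustment, beside 21.5% of all genes tested that passed by limma. Star, 1 of the 7, had an unadjusted p under 0.05 by limma. The summed levels of these lists were 0.896 to 1.01, 0.413 to 0.453 and 3.20 to 3.84 in sham and 0.826 to 1.04, 0.383 to 0.508 and 3.40 to 3.63 in tail-suspension. The part of these tissues in the member signal was not tested.

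Markers of blood cells and mast cells were read beside the members as well. Of 10 neutrophil markers, 8 were tested and 5 rose by limma, beside 10.5% of all genes tested that were higher, among them S100a8 by 4.80 (adjusted p = 0.00705; 3.51 to 6.24 over the alternatives), S100a9 by 4.62 (adjusted p = 0.00661), and Retnlg at least 12.3-fold and Ltf at least 6.26-fold, both dark in sham. Ltf did not pass the threshold without sham replicate 2 (adjusted p = 0.052 by limma, 0.00474 to 0.0658 over the alternatives). Of the 5 that rose, Retnlg, Ltf and Mpo passed the filter only through the tail-suspension group, where they were high. Nothing is thus read from that count. The list's summed level was 144 to 172 in sham and 208 to 238 in tail-suspension, most of it in Csf3r. The Csf3r probe read 45760, 52620 and 51370 in sham and 63180, 78970 and 71140 in tail-suspension, a log2 difference of 0.30. That sum thus mostly follows 1 probe and not the other markers. Whether the Csf3r probe reads neutrophil RNA was not tested. Elane, neutrophil elastase, differed by -0.30 (adjusted p = 0.0674 by limma). Of 9 mast cell markers, 5 were tested and 1 passed by limma, beside 21.5% of all genes tested. It was Kit, which fell by 1.99 (adjusted p = 0.00724 by limma, 0.0841 with slide row as a block and 0.001 to 0.0841 over the alternatives). The summed level of the mast cell list was 1.89 to 2.25 in sham and 1.35 to 1.96 in tail-suspension. Of 8 erythroid markers, 5 were tested and 0 passed by limma or by the methods' t-test after adjustment, beside 21.5% of all genes tested that passed by limma. Of the 5, 3 had an unadjusted p under 0.05 by limma. The summed level of the erythroid list was 428 to 689 in sham and 106 to 344 in tail-suspension. Under normexp and without tail-suspension replicate 2, 3 erythroid markers passed, and 2 passed under quantile normalization, in the deposited log2 values and under the stricter filter. The part of these cells in the member signal was not tested either.

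The genes most like the members over the 6 arrays were found by Pearson's r with the mean level of the 8 tested member probes, among 14940 other genes with a value on each array. The 5 closest were Rps6-ps2, a ribosomal protein pseudogene whose reading is uncertain beside its parent gene, with r of 0.998, A630081J09Rik with 0.997, Penk, the proenkephalin gene, with 0.997, Plscr1, phospholipid scramblase, with 0.996, and Eltd1, an adhesion receptor of endothelium, with 0.995. All 5 had higher means in tail-suspension, as the measure requires, by 0.23 to 1.11 on the log2 scale. Penk read 1454, 1468 and 1198 in sham and 2337, 2573 and 2427 in tail-suspension, a log2 difference of 0.63. Plscr1 differed by 0.92, A630081J09Rik by 1.11, Eltd1 by 0.29 and Rps6-ps2 by 0.23. With 6 points in 2 groups, such correlations describe a shared separation of the groups.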

How the data were processed

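The authors deposited the scanner output of 6 1-colour Agilent arrays, in which Feature Extraction 10.7.1.1 (per the submitters' processing notes) wrote each spot as a background-corrected processed intensity, and a log2 table whose columns correlated above 0.999 with the log2 processed intensity. How the authors normalized that log2 table is not given in the sources used here. Control and outlier spots were left out, spots of a probe were averaged, and the log2 of the 75th percentile of all spots that were not controls was subtracted on each array. A probe was flagged where at least 50% of its spots were well above background. Groups were compared with limma 3.58.1 in R 4.3.3, with Benjamini-Hochberg adjustment, a threshold of 0.05 and all 6 arrays in the fit. Precision is limited by how many arrays there are. The p-values measure the spread between these arrays, and an exact permutation test of 3 against 3 cannot go below 0.1.

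Genes were represented by the tested probe with the highest mean. Of 23688 gene names in the array design, 21934 matched a RefSeq symbol or synonym (assembly GRCm38.p6). Probe coordinates are those of the files (mm9), and exon annotation of that build was not used here. Identical runs and alignments were computed with Biopython 1.88. The members and gene lists were chosen with earlier results of these data known. Named are all members, of each list the genes past the threshold up to the 4 largest differences and otherwise defining genes, the kinin pathway by role, and the 5 genes most like the members. The steps were tested on simulated data. The result of 1 gene is not reported here.

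The alternatives were the deposited log2 values, normexp (offset 50), quantile normalization, the percentile of probes well above background throughout, filtering no dim probe or every probe dim on any array, keeping outlier spots, the methods' t-test, blocks for replicate number or slide row, and leaving out each array.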

Additional observations from a re-analysis of the deposited data

How the results depend on the processing

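All 7 high member probes kept their direction under every alternative in which they were tested, and their median with Klk1b21, 3.45, was 2.35 under normexp and 3.15 to 3.66 with each array left out. Klk1b21 was -0.048 under normexp. The counts over all tested probes, 3023 higher and 2683 lower, were 1041 and 790 without the filter on dim probes, 1532 and 1248 by the methods' t-test and 320 and 177 with slide row as a block. With each array left out they lay between 1008 and 2885 higher and between 749 and 2701 lower: 1422 and 1074 without sham replicate 1, 1008 and 749 without sham replicate 2, 1552 and 1457 without tail-suspension replicate 1, and 1149 and 933 without tail-suspension replicate 3. With the replicate number as a block they were 1714 and 1403. The deviations of samples of the same number correlated at -0.02, -0.0176 and 0.0495, so no shared deviation by number was seen. The labels give only the number, and these correlations cannot show whether the samples were paired. The count of family genes outside the members, 0, was 1 in the deposited log2 values and under the stricter filter (Klk8 in each), 1 without tail-suspension replicate 1 (Klk1b8) and 1 without tail-suspension replicate 2 (Klk8), and 0 to 1 over the arrays left out. The count of kinin pathway genes, 3, was 1 by the methods' t-test (Serpina3c) and 2 to 4 with each array left out. The cause of these shifts was not tested. The slide itself could not be a block because the 6 arrays shared it. Dim signal limits Klk1b3 and Klk1b16, which were above background on only 1 and 2 sham arrays, and Klk1, Klk1b4 and Klk1b24 have no level.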
